A study of Fukomys damarensis and Heterocephalus glaber and Mus musculus with 160 samples.

Results

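The 3 histone marks measured in mouse liver were compared with one another inside the same animals. The members are all deposited peak lists titled mouse, liver and H3K4me3, H3K27ac or H3K4me1, 4 lists for each mark and 12 of the 160 samples of the series, with 696645 peaks in all. The livers came from 4 wild-type adult C57BL/6J males aged 2 months (animals 85920, 85921, 85923 and 85924), and each animal gave 1 list for every mark. The marks were measured by chromatin immunoprecipitation and sequencing (ChIP-seq): tissue is fixed with formaldehyde, the chromatin is sheared, fragments that carry the mark are pulled down with an antibody and sequenced, and stretches with more reads than the background are reported as peaks. The peak names give one input library per animal for all 3 of its marks. Whole liver was used after perfusion, so each list sums over all cell types of the organ, and 2 marks at one place can come from the same or from different cells, which cannot be told apart in bulk tissue.

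The 3 marks sit on the tail of histone H3. Trimethylation of lysine 4 (H3K4me3) is laid down mainly by SET1 and MLL complexes at the start sites of active and poised genes, and CpG islands are its usual place. Monomethylation of the same lysine (H3K4me1) is laid down largely by MLL3 and MLL4 at enhancers and along the flanks of promoters, whether these are active or only primed. Acetylation of lysine 27 (H3K27ac), the work of the acetyltransferases p300 and CBP, marks the active members of both classes. A lysine carries 1 methylation state at a time, so H3K4me3 and H3K4me1 cannot share a histone tail, whereas either can stand beside H3K27ac. In liver, pairs of these marks are commonly used to list promoters and candidate enhancers of hepatocytes, the main cell type.

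The lists held between 17431 and 19301 H3K4me3 peaks, between 56871 and 63479 H3K27ac peaks and between 86486 and 113889 H3K4me1 peaks. The read depth behind a list is not known, because the files give neither read counts nor totals. The H3K4me1 list of animal 85924 stood apart from the other 3 H3K4me1 lists and touches many values below. It had 113889 peaks against 86486 to 92496, its highest fold was 46.7 against 17.8 to 20.6, and its Jaccard index (shared bases divided by bases covered by either list) with the other H3K4me1 lists averaged 0.371 against 0.555 among those 3. The H3K4me3 list of the same animal overlapped the other H3K4me3 lists about as those did one another, with mean Jaccard indices of 0.820 against 0.820. Its H3K27ac list overlapped the others slightly less, with a mean of 0.670 against 0.696. These H3K27ac values ran from 0.656 to 0.687 with animal 85924 and from 0.688 to 0.709 without it. The main values that involve H3K4me1 are therefore also given for the other 3 animals alone. The tissue label was not checked against marker genes, since gene positions on the mouse build of the files were not used here.

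H3K4me3 peaks were the widest and the fewest, and H3K4me1 peaks the narrowest. The median H3K4me3 peak measured 1150, 1239, 1132 and 1231 bases in animals 85920, 85921, 85923 and 85924. The median H3K27ac peak measured 578, 636, 628 and 617 bases, and the median H3K4me1 peak 513, 578, 555 and 456 bases, in the same order. No H3K4me3 list came near a list of another mark, while the H3K27ac and H3K4me1 lists met at their edges, at 578 bases. The log2 difference in median width was 0.95 for H3K4me3 over H3K27ac and 1.18 for H3K4me3 over H3K4me1 (two-sided exact permutation test of 4 lists against 4, adjusted p = 0.0429 for each over the 6 comparisons of width and coverage). For H3K27ac over H3K4me1 it was 0.23 (adjusted exact permutation p = 0.0686). Peaks of 2000 bases or more made up 19.6% ± 2.13 of H3K4me3, 12.4% ± 1.24 of H3K27ac and 4.31% ± 0.820 of H3K4me1 lists (SD, n = 4).

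In the lists as deposited, H3K4me3 also covered the least of the genome. Its peaks held 24.6 ± 1.41 Mb, against 63.6 ± 3.28 Mb for H3K27ac and 70.1 ± 6.53 Mb for H3K4me1 (SD, n = 4; 68.1 Mb without animal 85924), which is 0.903%, 2.34% and 2.58% of the stretch of chromosomes that the lists span. The log2 difference in covered bases was -1.37 for H3K4me3 against H3K27ac and -1.51 against H3K4me1 (two-sided exact permutation test, adjusted p = 0.0429 for each). The difference between H3K27ac and H3K4me1 did not pass, with a log2 value of -0.14 (adjusted exact permutation p = 0.171) and a range over animals from -0.34 to 0.02. With the animal as a replicate block, an exact sign-flip test over 4 animals gave adjusted p = 0.15 for each of the 4 differences that passed, and their raw p was the smallest that 4 pairs allow. These differences changed when every list was cut to the same number of peaks. The cut keeps the peaks with the highest -log10 q, so the part of list length alone was not tested. Among the 17431 peaks with the highest -log10 q of every list, the width difference between H3K4me3 and H3K27ac turned to -0.45 (adjusted exact permutation p = 0.0429). H3K4me3 against H3K4me1 then passed neither in width (0.085, adjusted exact permutation p = 0.24) nor in covered bases (-0.062, adjusted p = 0.371). In covered bases, H3K4me3 against H3K27ac was -0.65 and H3K27ac against H3K4me1 turned to 0.59, both with adjusted exact permutation p = 0.0429.

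Most H3K4me3 peaks carried H3K27ac, most H3K27ac peaks did not carry H3K4me3, and H3K4me1 was the mark most often found alone. A peak was taken to carry another mark when a peak of that mark from the same animal overlapped at least 50% of the shorter of both. H3K27ac overlapped 82.5%, 85.9%, 84.8% and 82.1% of H3K4me3 peaks in animals 85920, 85921, 85923 and 85924. H3K4me1 overlapped 69.4%, 67.7%, 65.8% and 80.6% of them. For H3K4me1 the first 3 animals lay close together and animal 85924 lay above them all. The mean difference between both shares was 13.0 points ± 8.06 (SD, n = 4), and 16.8 points without animal 85924, in which it was 1.53 points.

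**Figure D1:**
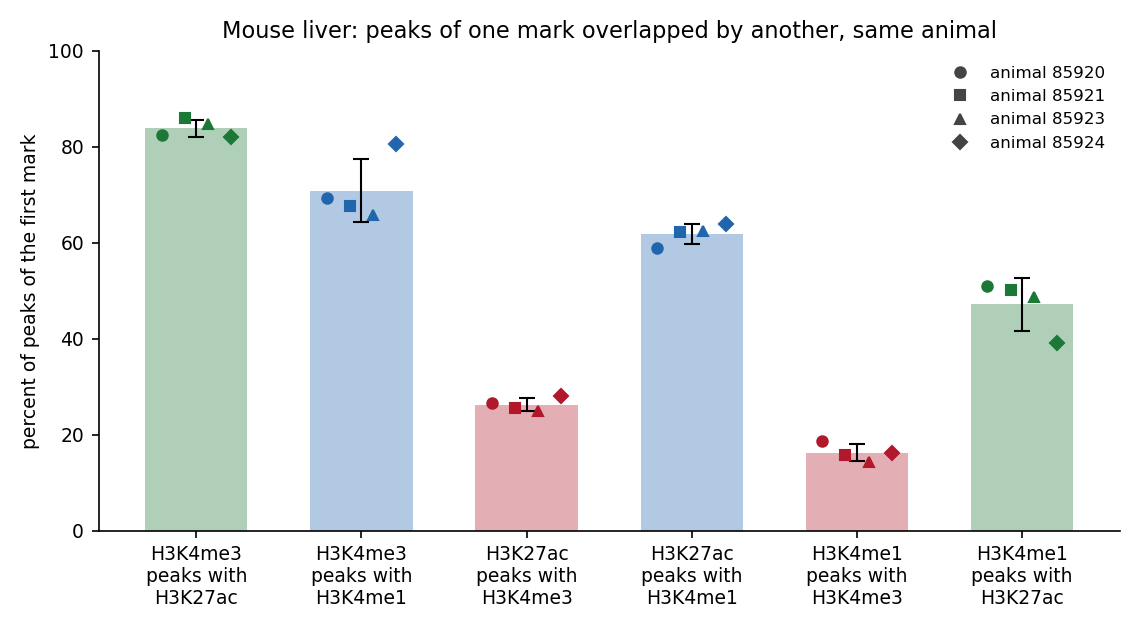
Percent of peaks of the first-named mark (y axis) overlapped by the second mark in the same animal, for the 6 ordered pairs of marks (x axis). Bars are means over 4 animals, error bars the SD and symbols single animals. H3K27ac sits on 82.1% to 85.9% of H3K4me3 peaks, while H3K4me3 sits on 25.0% to 28.0% of H3K27ac peaks, and animal 85924 stands apart for H3K4me3 peaks with H3K4me1 (80.6%) and for H3K4me1 peaks with H3K27ac (39.0%).

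Seen from H3K27ac, H3K4me1 was the common partner. H3K4me3 overlapped 26.6%, 25.5%, 25.0% and 28.0% of H3K27ac peaks in the 4 animals in the same order, and H3K4me1 overlapped 58.9%, 62.2%, 62.5% and 63.9%. The groups did not overlap, and the difference was -35.6 points ± 2.29 (SD, n = 4). Seen from H3K4me1, H3K4me3 overlapped 18.6%, 15.7%, 14.4% and 16.3% of peaks and H3K27ac 50.9%, 50.1%, 48.6% and 39.0%. Here animal 85924 was the lowest for H3K27ac, and the difference was -30.9 points ± 5.50, or -33.6 points without that animal. Each of the 3 differences had the same sign in 4 of 4 animals (two-sided exact sign-flip test, p = 0.13, the smallest that 4 animals allow, so none could pass). The 95% Wilson interval of a share in a single list spans at most 0.701 points to either side and covers counting error only.

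The first difference depended on the overlap rule: with an overlap of 1 base it was 2.20 points (exact sign-flip p = 0.25), and animal 85924 then had the other sign, with 82.5% of H3K4me3 peaks overlapped by H3K27ac and 83.7% by H3K4me1. The shares also changed when every list was cut to the same number of peaks. Among the 17431 peaks with the highest -log10 q per list, H3K4me3 overlapped 58.6% of H3K27ac peaks and H3K4me1 37.8%, which turns the order of both partners, and H3K4me1 overlapped 26.7% of H3K4me3 peaks in place of 70.9%, so that the difference seen from H3K4me3 was 34.8 points.

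The 3 shares in mouse liver were set beside the same shares in the livers of 3 wild-type adult male guinea pigs aged 2.3 months and 5 wild-type adult male naked mole-rats aged 13 to 17 months, the other groups used here with all 3 marks in the same animals. The share of H3K4me3 peaks with H3K27ac was 83.8% ± 1.83 in mouse (SD, n = 4), 97.6% ± 0.871 in guinea pig (n = 3) and 55.5% ± 27.2 in naked mole-rat (n = 5). The naked mole-rat mean includes animal NMR30, whose H3K4me3 list has 253457 peaks against 27591 to 48726 in the others and whose share was 8.78%. The mouse share was 13.8 points below the guinea pig share and 28.3 points above the naked mole-rat share, or 16.6 points above it without NMR30. Each had an adjusted p of 0.0857 by a two-sided exact permutation test over 6 comparisons, with and without NMR30, which does not pass. The share of H3K27ac peaks with H3K4me1 was 61.9% ± 2.11 in mouse, 61.8% ± 5.40 in guinea pig and 57.7% ± 3.47 in naked mole-rat. The share of H3K4me1 peaks with H3K27ac was 47.2% ± 5.50, 48.1% ± 3.16 and 36.6% ± 7.33. None of these 4 differences passed, with adjusted exact permutation p from 0.127 to 1. With equal numbers of peaks per list, 14782 in each, the share of H3K4me1 peaks with H3K27ac turned from 0.910 points below guinea pig to 10.2 points above it (adjusted exact permutation p = 0.0343). All of the 6 comparisons passed in that setting except that of H3K4me3 peaks with H3K27ac against naked mole-rat (3.61 points, adjusted exact permutation p = 0.198).

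Where 2 marks overlapped, the summits (the base of highest signal in a peak) of H3K4me3 and H3K27ac lay close together and those of H3K4me1 lay away. The median distance between H3K4me3 and H3K27ac summits was 76, 83, 69 and 84 bases in animals 85920, 85921, 85923 and 85924. Between H3K4me3 and H3K4me1 it was 530, 562, 504 and 430 bases, and between H3K27ac and H3K4me1 284, 356, 375 and 318 bases. The 3 pairs of marks kept this order in every animal and their ranges did not overlap. Summits lay within 150 bases of each other in 62.3% ± 1.48 of H3K4me3 and H3K27ac pairs, 20.2% ± 3.52 of H3K4me3 and H3K4me1 pairs and 35.9% ± 1.88 of H3K27ac and H3K4me1 pairs (SD, n = 4). Without animal 85924 the middle share was 18.5% ± 1.20 (n = 3).

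The mean difference in median distance was -429 bases ± 57.9 for H3K4me3 to H3K27ac against H3K4me3 to H3K4me1, and -255 bases ± 43.1 for H3K27ac to H3K4me3 against H3K27ac to H3K4me1 (SD, n = 4). Seen from H3K4me1, the distance to H3K4me3 was 173 bases ± 63.4 longer than to H3K27ac. All 3 held in 4 of 4 animals (two-sided exact sign-flip test, p = 0.13 for each, the smallest possible). Without animal 85924 they were -456, -262 and 194 bases. With equal numbers of peaks per list the second was -606 bases and the last turned to -124 bases.

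**Figure D2:**
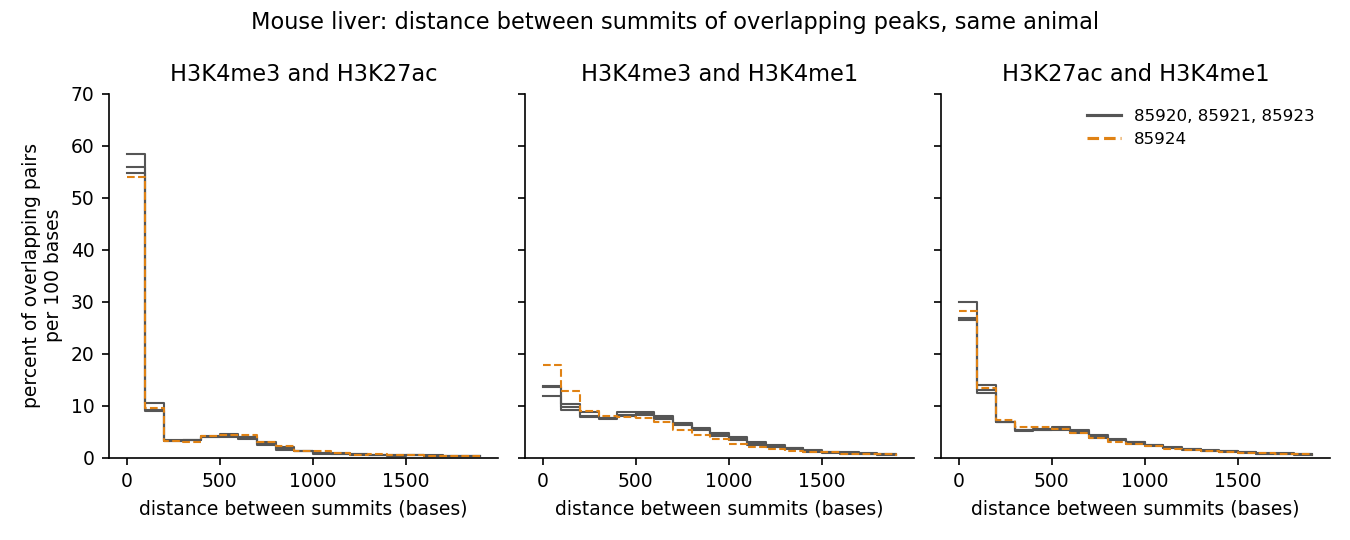
Distance between the summits of overlapping peaks of 2 marks (x axis, bases) and percent of overlapping pairs in each step of 100 bases (y axis), 1 line per animal and 1 panel per pair of marks. Most H3K4me3 and H3K27ac pairs fall in the lowest steps, with 62.3% within 150 bases. H3K4me3 and H3K4me1 pairs spread out, with a mean median of 507 bases. Animal 85924 (dashed) has more near H3K4me3 and H3K4me1 pairs than the other 3, but this does not hold for the other pairs of marks.

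The distance between H3K27ac and H3K4me1 summits differed between peaks with and without H3K4me3. At H3K27ac peaks with H3K4me3 the median was 697, 763, 766 and 577 bases in the 4 animals, and at those without it 163, 196, 210 and 172 bases. The longest of the second group was far below the shortest of the first. Summits within 150 bases were 15.3% ± 3.33 of pairs with H3K4me3 and 45.6% ± 2.28 of pairs without (SD, n = 4). H3K27ac peaks with H3K4me3 were also wider, as given below, and the part of width in this difference was not tested.

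Around H3K4me3 summits, H3K4me1 dipped at the summit in 3 animals, and H3K27ac did not dip in any. The summit base lay inside an H3K27ac peak for 80.8%, 84.5%, 83.5% and 80.1% of H3K4me3 peaks in animals 85920, 85921, 85923 and 85924. It lay inside an H3K4me1 peak for 33.3%, 31.8%, 34.1% and 60.0%, so animal 85924 stood far above the other 3. At 500 bases from the summit, counting both sides, H3K4me1 was present at 36.7%, 39.4%, 41.8% and 45.8%, which is more than at the summit in the first 3 animals and less in animal 85924. At 1000 bases both marks were about equally frequent, with means of 35.8% for H3K27ac and 35.8% for H3K4me1, and at 3000 bases they were at 14.8% and 15.2%.

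The arrangement with H3K4me1 at 1000 bases on both sides of an H3K4me3 summit but not at it made up 9.84%, 12.2%, 12.4% and 3.75% of H3K4me3 peaks in the 4 animals. H3K27ac took this form at 0.167% ± 0.0321 of summits (SD, n = 4). H3K4me1 on 1 side only, and not at the summit, was found at a further 22.9% ± 7.23 of H3K4me3 summits, or 26.4% ± 1.20 without animal 85924 (n = 3). At the summit itself, coverage was compared across animals. The H3K4me1 peaks of animal 85924 covered 58.7% to 60.0% of the H3K4me3 summits of any of the 4 animals, while the other H3K4me1 lists covered 29.8% to 36.7%. Within the list of animal 85924 the median fold was 9.04 at peaks with H3K4me3 and 6.23 elsewhere, against 5.45 to 5.93 and 4.95 to 5.19 within the other 3 lists.

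**Figure D3:**
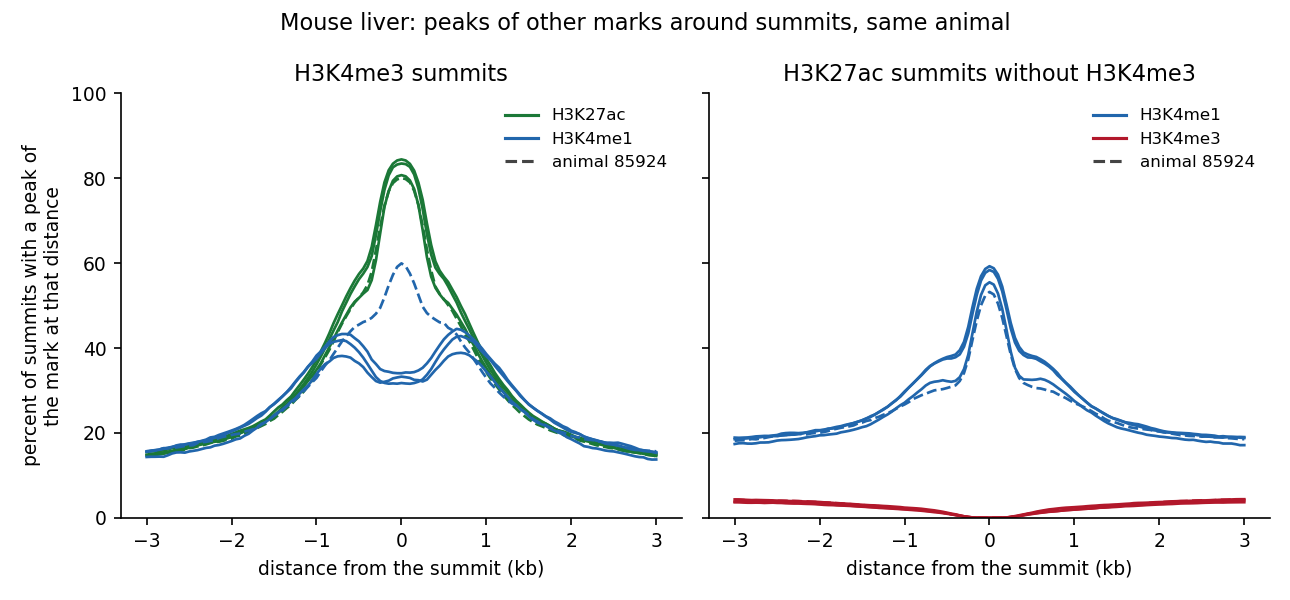
Percent of summits (y axis) with a peak of another mark at each distance (x axis, kb), for H3K4me3 summits on the left and for H3K27ac summits that lie outside H3K4me3 peaks on the right, 1 line per animal and mark. H3K4me1 falls to 31.8% to 34.1% at H3K4me3 summits in 3 animals and reaches 60.0% in animal 85924 (dashed), while at H3K27ac summits without H3K4me3 it is highest at the summit in all 4 animals.

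At H3K27ac summits outside H3K4me3 peaks, H3K4me1 had no dip. It covered 55.5%, 59.3%, 58.4% and 53.2% of these summits in the 4 animals in the same order, and a mean of 34.7% ± 3.69 of the positions 500 bases away and 18.3% ± 0.742 of those 3000 bases away (SD, n = 4). Animal 85924 was the lowest here and the highest at H3K4me3 summits. H3K4me1 on both flanks without the summit made up 1.43% ± 0.245 of these summits.

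Overlap with H3K4me1 was more frequent at wider H3K4me3 peaks, while the share of summits inside an H3K4me1 peak was lower. A wide peak can be overlapped away from its summit, which widens the gap between both shares by construction. Among H3K4me3 peaks under 500 bases, 61.6% ± 4.41 overlapped H3K4me1 and 60.3% ± 4.64 had their summit inside an H3K4me1 peak (SD, n = 4). Among those of 2000 bases or more, 80.6% ± 5.43 overlapped H3K4me1 and 20.3% ± 15.5 had the summit inside. The last value was 12.2%, 11.7%, 13.7% and 43.4% in animals 85920, 85921, 85923 and 85924, so the 3 animals other than 85924 averaged 12.5% ± 1.03. With H3K27ac both shares were high at wide peaks, at 99.2% ± 0.177 for overlap and 98.3% ± 0.462 for the summit. No test was made over width classes, as peaks of a list are not replicates.

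One H3K4me3 peak often met several H3K4me1 peaks. By an overlap of at least 1 base, 27.7% ± 1.99 of H3K4me3 peaks touched 2 or more H3K4me1 peaks, and 10.9% ± 1.57 touched 2 or more H3K27ac peaks (SD, n = 4). In the other direction, 0.565% ± 0.0719 of H3K4me1 peaks touched 2 or more H3K4me3 peaks. H3K27ac peaks, with their long upper tail of width, touched 2 or more H3K4me1 peaks in 15.5% ± 1.32 of cases.

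Fold, the enrichment that the authors' lists give for each peak, is compared only within a list. Within H3K4me3 lists, peaks with both other marks had a median fold of 45.8, 42.1, 41.1 and 45.9 in animals 85920, 85921, 85923 and 85924. Peaks without another mark had 5.66, 5.96, 5.42 and 4.96. The classes were far apart in every list, with a log2 ratio of 2.99 ± 0.17 (SD, n = 4; two-sided exact sign-flip test, p = 0.13, the smallest that 4 animals allow). The partner that went with high H3K4me3 fold was H3K27ac: peaks with H3K27ac alone had a median of 31.9 ± 7.04 and peaks with H3K4me1 alone 8.21 ± 0.351. The first exceeded the second by 3.05-fold to 4.88-fold within each list.

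Within H3K27ac lists the same order held with smaller steps. Peaks with both other marks had a median fold of 17.2, 18.1, 19.1 and 14.2 in the 4 animals, and peaks without another mark 5.15, 4.67, 4.92 and 4.92. The log2 ratio was 1.79 ± 0.21 (SD, n = 4; exact sign-flip test, p = 0.13), and 0.88 with equal numbers of peaks per list. H3K27ac peaks with H3K4me3 alone stood at 11.4 ± 1.22 and those with H3K4me1 alone at 6.52 ± 0.429, and the first exceeded the second 1.59-fold to 1.95-fold in the 4 lists.

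Within H3K4me1 lists the fold hardly separated the classes beyond the step from 1 mark to 2. Peaks with H3K4me1 alone had a median of 4.69, 4.54, 4.78 and 5.60 in the 4 animals, and those with both other marks 5.58, 5.47, 5.93 and 8.83. The log2 ratio was 0.37 ± 0.19 (SD, n = 4; exact sign-flip test, p = 0.13), and 0.28 over the 3 animals without 85924, whose own value was 0.66. With equal numbers of peaks per list it was 0.025 and no longer of one sign in all 4 animals (exact sign-flip p = 0.25). Peaks with 3 marks were not above peaks with 2 in any of the 4 lists, with ratios from 0.964 to 0.999. Peaks with H3K4me3 alone and with H3K27ac alone beside H3K4me1 were at 6.65 ± 1.95 and 6.55 ± 1.52, or 5.68 ± 0.338 and 5.79 ± 0.123 without animal 85924 (n = 3), which differ by less than their spread.

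Peaks with 3 marks were also wider than peaks with 1. The median width with 3 marks over that with 1 had a log2 ratio of 1.72 ± 0.08 for H3K4me3, 1.93 ± 0.22 for H3K27ac and 0.72 ± 0.06 for H3K4me1 (SD, n = 4; exact sign-flip test, p = 0.13 for each, positive in 4 of 4 animals). With equal numbers of peaks per list these ratios were 1.00, 0.94 and 0.26. Within H3K4me1 lists the width did not follow the number of marks past 2: the ratio of 3 marks to 2 was 1.05 ± 0.0796, from 0.965 to 1.16, and above 1 in 3 of 4 animals. In bases, H3K4me3 peaks alone had a mean median of 434 and those with both marks 1432, H3K27ac peaks 400 and 1529, and H3K4me1 peaks 419 and 690. A wider peak has more bases on which another peak can fall, and wide peaks also have a high fold. Within the middle 33.3% of widths of each list the log2 ratio of fold was 2.04 for H3K4me3, 0.54 for H3K27ac and 0.17 for H3K4me1. The direction was the same in each, and each ratio was smaller than in the whole lists, where they were 2.99, 1.79 and 0.37.

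**Figure D4:**
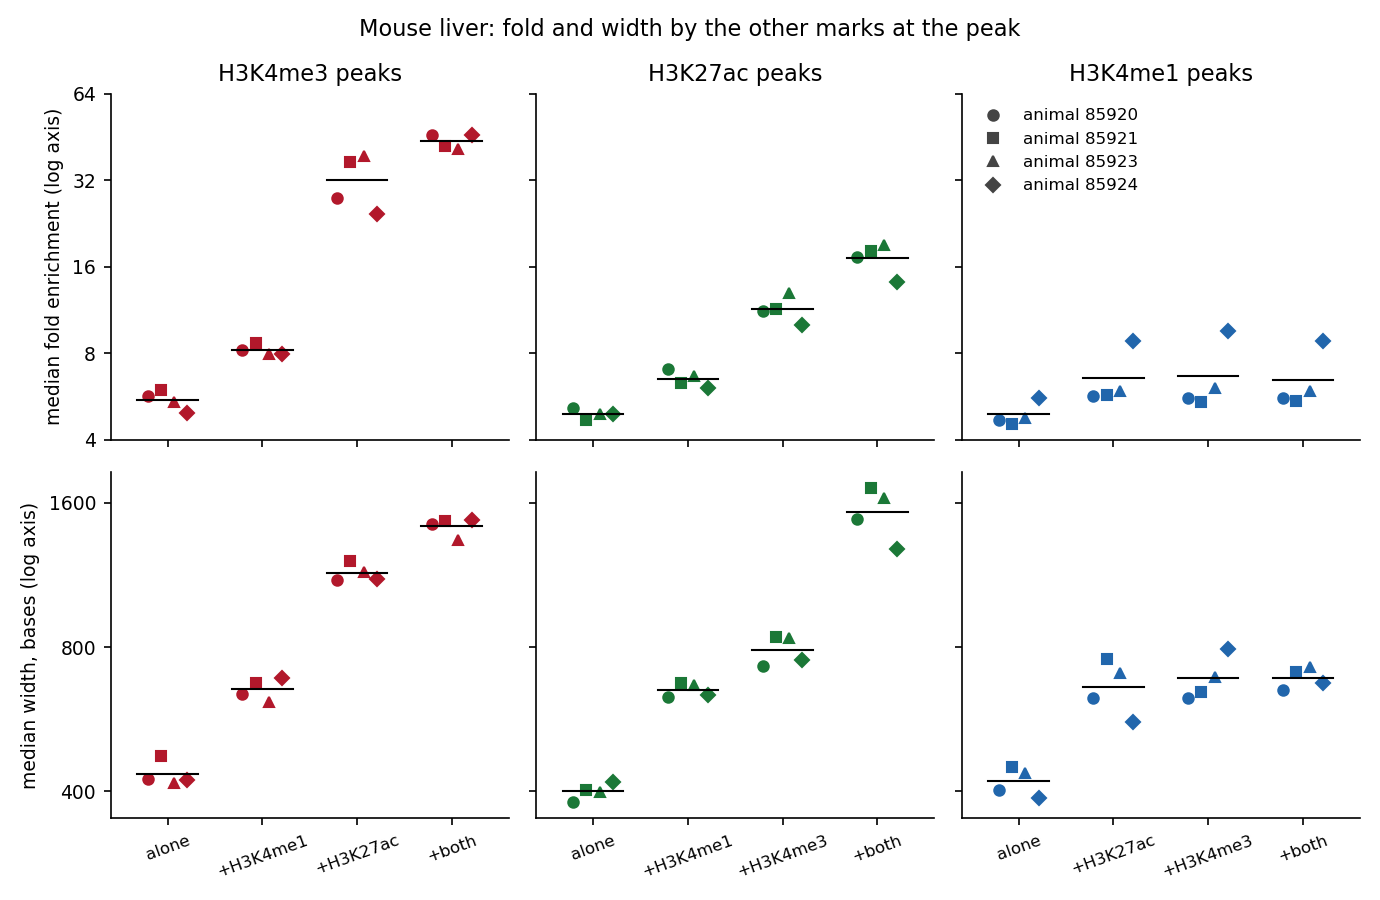
Median fold enrichment (top, log axis) and median width in bases (bottom, log axis) of peaks of each mark by the other marks overlapping them (x axis), with 1 symbol per animal and a line at the mean of 4. H3K4me3 and H3K27ac medians step up from peaks alone to peaks with both marks (5.50 to 43.7 and 4.91 to 17.1), while H3K4me1 medians stay between 6.45 and 6.65 in all classes with another mark.

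The split of each list into classes shows how uneven the marks are. Of H3K4me3 peaks, 4.92% ± 1.32 were alone, 24.2% ± 6.01 had H3K27ac only, 11.2% ± 2.22 had H3K4me1 only and 59.6% ± 4.68 had both (SD, n = 4). Of H3K27ac peaks, 28.4% ± 0.964 were alone, 9.69% ± 1.88 had H3K4me3 only, 45.3% ± 2.14 had H3K4me1 only and 16.6% ± 2.85 had both. Of H3K4me1 peaks, 47.5% ± 6.53 were alone, 5.36% ± 1.27 had H3K4me3 only, 36.3% ± 6.28 had H3K27ac only and 10.9% ± 1.20 had both. Animal 85924 had the fewest H3K4me3 peaks with H3K27ac only (15.9% against 23.9% to 29.6%) and the most H3K4me1 peaks alone (56.9% against 42.0% to 46.4%). Without it, 57.4% of H3K4me3 peaks had both marks, 15.2% of H3K27ac peaks had both, and 44.3% of H3K4me1 peaks were alone.

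Peaks with 3 marks had a higher share found again in the other animals than peaks with 1. An H3K4me3 peak with both marks was overlapped by an H3K4me3 peak in all 3 other animals in 88.6% ± 3.72 of cases, and one without another mark in 51.5% ± 8.67 (SD, n = 4). For H3K27ac these shares were 90.3% ± 2.28 and 35.7% ± 7.27, and for H3K4me1 64.2% ± 5.91 and 25.3% ± 5.01 (67.1% and 27.6% without animal 85924). Peaks with 3 marks and with 1 did not overlap in this share for any mark. H3K4me1 peaks with H3K4me3 only stood at 67.9% ± 2.12, above those with both marks, and in animal 85924 peaks with 3 marks were at 55.4% and those with 2 at 63.6%. H3K27ac peaks with H3K4me3 only were found again in 86.8% ± 2.05 of cases and those with H3K4me1 only in 64.9% ± 2.09. Fold and width moved with these shares, and their part in them was not tested.

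Peaks without a partner were not all close to one that missed the overlap rule. H3K4me3 peaks alone had the nearest H3K4me1 peak at a median gap of 4653 bases ± 1978 and the nearest H3K27ac peak at 9775 bases ± 4075 (SD, n = 4). H3K27ac peaks alone had H3K4me1 at 1463 bases ± 258 and H3K4me3 at 19788 bases ± 1722. H3K4me1 peaks alone had H3K27ac at 3766 bases ± 976. Within 1000 bases, H3K4me1 was present at 44.1% ± 2.82 of H3K27ac peaks alone and 34.0% ± 4.59 of H3K4me3 peaks alone. H3K27ac was that near at 30.1% ± 4.81 of H3K4me3 peaks alone and 30.1% ± 5.13 of H3K4me1 peaks alone. For H3K4me3 the share was 7.30% ± 0.839 at H3K27ac peaks alone and 14.3% ± 3.80 at H3K4me1 peaks alone. Without animal 85924, the gap to H3K4me1 was 5565 bases from H3K4me3 peaks alone and 1579 from H3K27ac peaks alone, and that from H3K4me1 peaks alone to H3K27ac was 3281. An overlap of 1 base or more that fell short of the rule was present at 12.7% ± 2.78 of H3K4me3 peaks alone for H3K4me1, and at 4.51% ± 1.27 for H3K27ac.

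Ranking each list by fold shows where the partner marks fall. The share of H3K4me3 peaks with H3K27ac was 62.3% ± 2.81 in the lowest 10% of the list by fold and 99.9% ± 0.0782 in the highest 10% (SD, n = 4). In the highest 10% every H3K4me3 peak of animals 85921 and 85923 carried H3K27ac. The share with H3K4me1 moved little, from 63.4% ± 3.09 to 73.7% ± 9.01, and the value in the highest 10% ranged from 63.7% in animal 85923 to 85.1% in animal 85924. For H3K27ac peaks the share with H3K4me3 was 9.46% ± 2.12 in the lowest 10% and 76.3% ± 1.54 in the highest, while the share with H3K4me1 went from 45.6% ± 3.45 to 80.8% ± 3.37. For H3K4me1 peaks the share with H3K27ac went from 31.6% ± 8.64 to 79.2% ± 1.66 and the share with H3K4me3 from 12.8% ± 3.07 to 26.5% ± 5.68. Without animal 85924, H3K4me1 stood at 61.9% in the lowest 10% of H3K4me3 peaks and at 63.7% to 75.7% in the highest, and went from 44.2% to 79.3% on H3K27ac peaks. On H3K4me1 peaks of those 3 animals H3K27ac went from 35.8% to 79.3% and H3K4me3 reached 20.9% to 27.2% in the highest 10% of the 3 lists. The median width in the highest 10% was 2067, 2508 and 1269 bases for H3K4me3, H3K27ac and H3K4me1, against 346, 326 and 351 in the lowest, so fold and width cannot be told apart in this ranking.

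**Figure D5:**
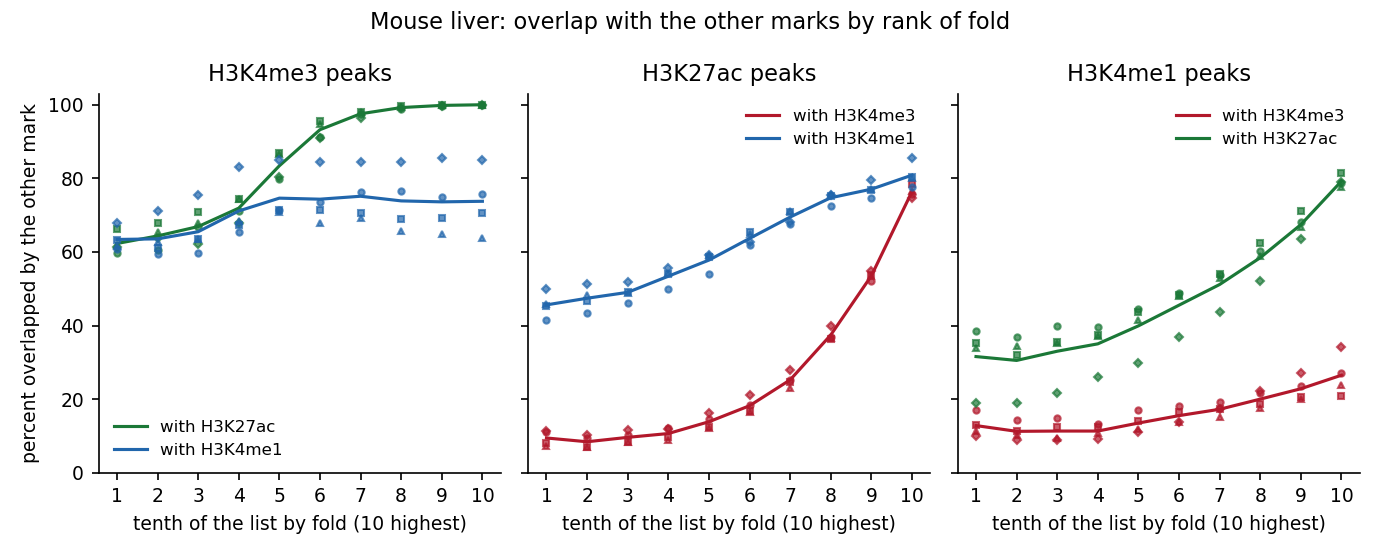
Percent of peaks overlapped by each other mark (y axis) in 10 equal steps of a list ranked by fold, from 1 (lowest) to 10 (highest, x axis), with symbols for single animals and lines for the mean of 4. The share of H3K4me3 peaks with H3K27ac reaches 99.9% and the share of H3K27ac peaks with H3K4me3 goes from 9.46% to 76.3%, while the share of H3K4me3 peaks with H3K4me1 stays between 63.4% and 75.1%.

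At overlapping pairs, the folds of both marks were only loosely related. Across pairs within an animal, Spearman's rho averaged 0.25 for H3K4me3 and H3K27ac over 16189 to 18072 pairs, -0.13 for H3K4me3 and H3K4me1 over 13586 to 18873 pairs and 0.07 for H3K27ac and H3K4me1 over 46999 to 48528 pairs. The sign was the same in all 4 animals for each pair of marks, with H3K4me3 and H3K4me1 from -0.22 in animal 85924 to -0.07 in animal 85920. Pairs of an animal share its input library, and peaks are not independent replicates, so these values are given as a description without a test.

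Lists of the same animal overlapped slightly more than lists of different animals. The mean Jaccard index within an animal was 0.266 for H3K4me3 and H3K27ac, 0.129 for H3K4me3 and H3K4me1 and 0.342 for H3K27ac and H3K4me1. The index between animals was lower by 0.00239, 0.00135 and 0.0111. The adjusted p was 0.0625, 0.167 and 0.0625 (one-sided exact permutation test over the 24 pairings of 4 animals, 3 comparisons), so none passed. Unadjusted, the first and the last were at 0.0417, the smallest p the pairings allow. With equal numbers of peaks per list all 3 passed (adjusted exact permutation p = 0.0417) and the last difference was 0.00503. Without animal 85924 the differences were 0.00181, 0.00183 and 0.0129 (exact permutation p = 0.167, the smallest that 3 animals allow).

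Merging the touching peaks of the 3 marks in each animal gave 91834, 91487, 93398 and 115330 regions in animals 85920, 85921, 85923 and 85924. Regions with all 3 marks numbered 12020 ± 270 (SD, n = 4) and regions with H3K27ac and H3K4me1 but no H3K4me3 24000 ± 1295. H3K4me1 alone made up 41782 ± 13458 regions, or 35148 ± 2766 without animal 85924 (n = 3), and H3K27ac alone 15577 ± 1056. The classes with H3K4me3 but not all 3 marks were small, at 754 ± 260 regions for H3K4me3 alone, 1912 ± 228 for H3K4me3 with H3K27ac and 1967 ± 376 for H3K4me3 with H3K4me1. Regions with 3 marks had a median width of 2225 bases ± 83.3 and covered 33.9 ± 1.28 Mb, and regions with H3K27ac and H3K4me1 covered 34.1 ± 3.38 Mb.

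Regions with 3 marks were the most alike between animals. Of the regions with 3 marks in 1 animal, a mean of 89.0% had 3 marks in another, with 86.2% to 92.6% over the ordered pairs of animals. By mean, the next were H3K27ac with H3K4me1 (71.0%), H3K4me3 with H3K4me1 (67.9%), H3K4me3 with H3K27ac (45.2%), H3K4me1 alone (42.4%), H3K27ac alone (35.7%) and H3K4me3 alone (33.4%). The first of these ran from 60.2% to 79.9% and the second from 51.9% to 80.6%. H3K4me3 with H3K27ac went down to 31.9%. H3K4me1 alone ran from 21.7% to 55.9%, H3K27ac alone from 22.9% to 45.8% and H3K4me3 alone from 17.9% to 55.8%. These ranges overlapped, so the order below 3 marks is not settled. These shares are not given without animal 85924. Regions with H3K4me3 and H3K27ac had H3K4me1 too, and so 3 marks, in another animal in 39.7% of cases. Those with H3K4me3 and H3K4me1 showed 3 marks in another animal in 14.1% of cases, and those with H3K27ac and H3K4me1 in 1.92%, so regions without H3K4me3 seldom had it in another animal. Over all 4 animals, 9408 of the 14207 regions that had 3 marks in at least 1 animal had them in every animal. The counts were 9955 of 30415 for H3K27ac with H3K4me1 and 49 of 1406 for H3K4me3 alone. They are of 129394 regions with any mark over the 4 animals together, not of the regions of single animals. A further 849, 2991 and 84 had these combinations in every animal but 85924, as did 3385 with H3K4me1 alone. Median widths in single animals averaged 2225 bases with 3 marks and 427, 399 and 407 with H3K4me3, H3K27ac or H3K4me1 alone. The part of width in these shares was not tested.

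Single regions show these arrangements. They are the regions with the same combination in all 4 animals and the highest mean percentile of fold, 3 for each of the 7 combinations, on the mouse build GRCm38 and named by position only. With 3 marks, the first was chr5:144253691-144262583 (8893 bases), where the strongest H3K4me3 peak had a fold of 195, 139, 284 and 274 in animals 85920, 85921, 85923 and 85924. Its strongest H3K27ac peak had 54.9, 64.5, 89.8 and 76.3 and its strongest H3K4me1 peak 9.79, 16.1, 15.8 and 29.6. The summits of H3K4me3 and H3K27ac lay 5 to 34 bases apart in the 4 animals, and that of H3K4me1 lay 1649 to 1745 bases from H3K4me3. The position of the H3K4me3 summit varied by no more than 11 bases between animals. At chr11:58006447-58022849 the H3K4me3 and H3K27ac summits were 4 to 71 bases apart and the strongest H3K4me1 peak was 7862 to 11509 bases away. At chr19:23131250-23154041 the strongest H3K27ac peak was 2 bases from H3K4me3 in animal 85920 and 7089 to 7218 bases from it in the other 3.

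With H3K4me3 and H3K27ac but no H3K4me1, the first region was chr3:58576306-58578230 (1925 bases). H3K4me3 had a fold of 147, 158, 168 and 143 there in the 4 animals and H3K27ac 55.9, 48.9, 59.3 and 27.4, with summits 5 to 77 bases apart. The other regions of this kind, chr19:12793756-12797332 and chr5:150664492-150665813, had a mean H3K4me3 fold of 184 ± 88.9 and 169 ± 46.5 and summits no more than 95 bases from those of H3K27ac. All 3 stood at or above the 95.9th mean percentile of fold in their lists.

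With H3K4me3 and H3K4me1 but no H3K27ac, folds were lower. At chr12:116404467-116406246 the H3K4me3 fold was 53.6, 46.1, 66.6 and 25.3 in animals 85920, 85921, 85923 and 85924 and the H3K4me1 fold 11.2, 11.1, 8.57 and 10.3, with summits 143 to 288 bases apart. At chr9:35558062-35560399 the summits were 1055 to 1194 bases apart in all 4 animals. The third, chr5:8621989-8623433, had a mean H3K4me3 fold of 36.0 ± 12.8 (SD, n = 4).

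With H3K27ac and H3K4me1 but no H3K4me3, the leading regions were long chains of peaks. At chr8:126822965-126835715 (12751 bases) the strongest H3K27ac peak had a fold of 80.4, 51.9, 85.2 and 75.2 in the 4 animals and the strongest H3K4me1 peak 14.7, 12.2, 15.9 and 35.8. Their summits were 46 to 99 bases apart in 3 animals and 6490 in animal 85921. The next, chr15:58972941-59050444 and chr9:48719458-48757917, spanned 77504 and 38460 bases, and their mean H3K27ac folds were 58.7 ± 7.06 and 60.9 ± 24.1 (SD, n = 4).

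Regions with a single mark in all 4 animals numbered 49 for H3K4me3, 1229 for H3K27ac and 5519 for H3K4me1. The leading regions were picked from these unequal pools. Within their own lists they stood lowest for H3K4me3, higher for H3K27ac and highest for H3K4me1. As a class, H3K4me1 peaks alone had a mean median fold of 4.90, against 5.49 for whole H3K4me1 lists. H3K4me3 alone was led by chr2:176798653-176799262, with a fold of 35.1, 23.6, 20.7 and 25.6 in the 4 animals, which is the 47.8th mean percentile. This region stood above the list median of 27.3 in animal 85920 and below those of 30.3, 29.4 and 28.6 in animals 85921, 85923 and 85924. Its summit lay within 4 bases in all 4 animals. The second was chrX:50537164-50537964, with a mean fold of 24.3 ± 3.58 (SD, n = 4), and the third chr13:21160845-21161496, with 20.2 ± 6.88. H3K27ac alone was led by chr6:149164793-149167300, with a fold of 17.3, 27.5, 28.9 and 21.8 and the 89.5th mean percentile. H3K4me1 alone was led by chr11:76997019-76999106, with a fold of 11.3, 8.88, 11.5 and 19.2 and the 96.8th mean percentile, near the top of its lists.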

How the data were processed

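The authors deposited 1 peak list per sample, for the mouse on build GRCm38 per the peak names, and MACS2 is named without a version in the submitters' processing notes. For the aligner and the settings, nothing was given in the sources used here. Each deposited peak carries a fold enrichment and a -log10 q, both the authors' values, and the lowest -log10 q was 1.30. Peaks of a list that overlapped were to be merged, which changed 0 peaks. Marks were compared between lists of the same animal. Same-numbered samples come from the same animal per the labels, which pairs them across marks. Tests were exact permutation, sign-flip and pairing tests over lists or animals, with Benjamini-Hochberg adjustment within each kind of comparison and 0.05 as the threshold. The smallest p is 0.0286 for 4 against 4 or 3 animals and 0.00794 for 4 against 5. Python 3.11.15 with NumPy 2.4.6, SciPy 1.17.1, statsmodels 0.14.6 and pandas 2.3.3 was used, and the code was tested on simulated peaks, where 27 of 27 checks passed. Alternatives were an overlap of 1 base, the summit inside a peak, -log10 q of at least 4, equal numbers of peaks, peaks found in a second animal, peaks of middle width, the replicate block and leaving out each animal. The members and comparisons were chosen with earlier results of these data known. The regions named are the 3 of each combination with the highest mean percentile of fold among those alike in all 4 animals. Gene positions, and with them the gene lists, were not used here, and no sequence is printed.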

Additional observations from a re-analysis of the deposited data

Results flagged for a closer look

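Of 26 groups of 4 animals examined for a sample far from the others, 2 had one. Chance alone gives about 1 in 20, so 2 of 26 is not far above that rate. The groups share lists and are not independent. Both flagged values involve the H3K4me1 list of animal 85924. The share of H3K4me3 summits inside an H3K4me1 peak was 60.0% in animal 85924 against 31.8% to 34.1% in the other 3. The log2 ratio of median fold between H3K4me1 peaks with 3 marks and with 1 mark was 0.66 in that animal against 0.25 to 0.31. The same list had the most peaks and the highest folds of the 4, and the part of list length in these values was not tested.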

How the results depend on the processing

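Read depth is unknown, and 4 animals limit every test. Equal numbers of peaks per list (17431 in mouse) changed most. The log2 width difference became -0.45 for H3K4me3 minus H3K27ac, 0.085 for H3K4me3 minus H3K4me1 and 0.53 for H3K27ac minus H3K4me1, and the covered bases -0.062 for H3K4me3 minus H3K4me1 and 0.59 for H3K27ac minus H3K4me1, so both H3K4me3 minus H3K4me1 differences lost their call. H3K4me3 minus H3K27ac in covered bases was -0.65 and kept it. The log2 ratios of 3 marks over 1 became 2.24, 0.88 and 0.025 in fold and 1.00, 0.94 and 0.26 in width for H3K4me3, H3K27ac and H3K4me1. The shares became 61.5% and 26.7% for H3K4me3 peaks with H3K27ac and H3K4me1, 58.6% and 37.8% for H3K27ac peaks with H3K4me3 and H3K4me1 (a difference of 20.8 points) and 26.8% for H3K4me1 peaks with H3K4me3. The distance difference seen from H3K4me1 became -124 bases, and the 3 Jaccard differences of 0.00240, 0.00190 and 0.00503 then passed (exact pairing test, adjusted p = 0.0417). With 14782 peaks per list, mouse minus guinea pig was -13.7, 7.05 and 10.2 points and mouse minus naked mole-rat 13.3 and 20.1 points for the shares of H3K27ac with H3K4me1 and H3K4me1 with H3K27ac, all of which passed (adjusted exact permutation p from 0.0238 to 0.0343).

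With an overlap of 1 base the difference between H3K27ac and H3K4me1 on H3K4me3 peaks was 2.20 points, and the shares were 82.1% for H3K4me3 with H3K4me1, 68.4% for H3K27ac with H3K4me1, 21.2% for H3K4me1 with H3K4me3 and 52.9% for H3K4me1 with H3K27ac. With the summit inside a peak they were 39.8% for H3K4me3 and 50.5% for H3K27ac with H3K4me1. The share of H3K27ac with H3K4me3 was 28.0% at -log10 q of at least 4 and 28.3% for peaks found in a second animal. The difference from guinea pig in H3K27ac peaks with H3K4me1 was -0.835 points with 1 base and -0.875 at the stricter q, and -3.05 to 1.74 without single animals. That in H3K4me1 peaks with H3K27ac was -2.40 to 1.80. Without single animals the 4 passing differences were 0.93 to 0.98 and 1.10 to 1.23 in width and -1.42 to -1.32 and -1.60 to -1.46 in covered bases, where 3 lists against 3 allow no p under 0.1. In the paired test (replicate block) those 4 differences, 0.95, 1.18, -1.37 and -1.51, had an adjusted exact sign-flip p of 0.15. The cause of these changes was not tested, except that fewer animals limit p.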

Other observations

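On the X chromosome, of which these males carry a single copy, the shares of H3K4me3 and of H3K27ac peaks with H3K4me1 were below those on the autosomes in each of the 4 animals. H3K4me1 overlapped 43.6%, 40.8%, 35.5% and 65.0% of H3K4me3 peaks on X in animals 85920, 85921, 85923 and 85924, against 70.2%, 68.5%, 66.8% and 81.1% on the autosomes. Of H3K27ac peaks it overlapped 33.5% ± 5.37 on X and 62.4% ± 2.13 on the autosomes (SD, n = 4). The shares with H3K4me3 went the other way in each of the 4 animals, with 40.9% to 45.5% of H3K27ac peaks on X against 24.7% to 27.7% on the autosomes, and 18.5% to 33.9% of H3K4me1 peaks against 14.3% to 18.5%. H3K27ac overlapped 74.2% ± 2.31 of H3K4me3 peaks on X and 84.1% ± 1.82 on the autosomes. The median fold of H3K4me3 peaks was 26.8 ± 0.440 on X and 29.0 ± 1.35 on the autosomes, but nearly equal in animal 85920 (27.19 and 27.25). The median fold of H3K27ac peaks was higher on X in each of the 4 animals. It ran from 6.63 to 7.49 on X and from 6.22 to 6.83 on the autosomes. For H3K4me1 peaks it was lower on X in animals 85920, 85921 and 85923. In animal 85924 it was higher, at 6.64 against 6.51. X held 2.83% of H3K4me3, 1.62% of H3K27ac and 1.13% of H3K4me1 peaks. Among merged regions it held 8.03% of those with H3K4me3 and H3K27ac, 7.71% of those with H3K4me3 alone, 1.76% of those with 3 marks and 0.783% of those with H3K27ac and H3K4me1. Of all merged regions X held 1.54% ± 0.161 (SD, n = 4). This split was made after the values were seen and was not tested.

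In guinea pig liver 28.8% ± 9.87 of H3K4me3 peaks overlapped H3K4me1 (SD, n = 3) and in naked mole-rat liver 34.8% ± 18.0 (n = 5), against 70.9% ± 6.64 in mouse liver (n = 4). The naked mole-rat mean includes animal NMR30, with 253457 H3K4me3 peaks against 27591 to 48726 in the others. The lowest naked mole-rat share was 6.12%. The highest values of those species, 39.9% and 54.7%, lay below the lowest mouse value of 65.8%. Their H3K4me1 lists held 119768 to 180145 peaks, against 86486 to 113889 in mouse. Neither the difference nor the part of list length in it was tested.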
